A study of Drosophila melanogaster with 72 samples.

Results

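Of the 15240 genes in the deposited table, 41 had a symbol that names a proteasome subunit, that is, a symbol starting with Prosalpha, Prosbeta, or Pros, Rpn or Rpt followed by a digit. Among them, 28 were the subunits that all cells use: 7 of the alpha ring and 6 of the beta ring of the core, 5 ATPases and 3 further subunits of the base, and 7 of the lid. The other 13 were testis copies, second genes for the same subunits that end in T or R. Pros28.1A and Pros28.1B were placed among these 13 because the annotation in the table lists them also as Prosalpha4T1 and Prosalpha4T2. Each gene was read from its transcript with the highest mean level. The build uses older names for some members: Pros25, Pros29, Pros28.1 and Pros35 are alpha2, alpha3, alpha4 and alpha6, Pros26 is beta6, Pros26.4 and Pros45 are the ATPases Rpt2 and Rpt6, and Pros54 is Rpn10.

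The proteasome degrades proteins that carry ubiquitin chains. Its core is a barrel of alpha rings, which gate the entrance, and beta rings, in which Prosbeta1, Prosbeta2 and Prosbeta5 hold the active sites. The base and lid form a cap that binds the tagged protein, removes its ubiquitin and unfolds it with the Rpt ATPases. In Drosophila, several subunits have a copy that is used in the male germ line, and loss of Prosalpha6T makes males sterile.

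The RNA came from Oregon R males aged 3, 5 and 7 weeks, either fed ad libitum (ALF) or under time-restricted feeding (TRF), in which the flies spent part of each day on agar and water. Head, periphery (the body without the head) and, at week 5, heart were sampled at Zeitgeber times (ZT). The ZTs were ZT00, ZT06, ZT12 and ZT18, and in head and periphery at week 5 also ZT03, ZT09, ZT15 and ZT21. There was 1 library per tissue, week, feeding type and ZT, and how many flies went into a library is not given in the sources used here. All flies shared strain and sex.

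Tissue was checked with ninaE, the main rhodopsin of the eye, and 12 of the 72 libraries went against their label. Libraries labelled head with under 1000 FPKM of ninaE and libraries labelled periphery with over 1000 FPKM were left out, 6 of each (FPKM are fragments per kilobase of transcript at a common library size, so levels of different genes can be compared). The 60 libraries kept were 8, 13 and 5 heads and 5, 16 and 5 peripheries at weeks 3, 5 and 7, and 8 hearts, with ninaE at 9856 to 27051 FPKM in head, 0 to 0.633 FPKM in periphery and 20.8 to 86.3 FPKM in heart. The hearts held 721 to 1779 FPKM of Hand, whose product is a transcription factor of the heart tube. Depth ran from 0.210 to 2.30 M reads in heads at week 3, from 2.06 to 18.6 M at week 5 and from 1.10 to 3.92 M at week 7, and from 6.48 to 23.7 M in periphery and heart. 1 head, week 5 ALF ZT15, stood apart, with a median of 2989 FPKM over ribosomal protein genes against 1123 to 1363 FPKM in the other 12 heads of week 5. In bulk samples such as these, fewer cells of a type and less RNA per cell cannot be told apart.

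Subunit RNA was lowest in head, higher in periphery, and spread over the widest range in heart. Of the 28 general subunits, Prosalpha1 was listed at no more than 0.76 FPKM in any kept library. Its transcript (CG18495, chr2R:3717918-3719276, dm3, minus strand) is listed in the table with 2 copies and overlaps CG30382, so its values cannot be read as the level of the subunit, and it passed no filter on low values. The other 27 passed in every comparison. At week 5 the median of the 27 in a library was 55.2 to 99.0 FPKM in head (median 69.2), 97.9 to 125 FPKM in periphery (median 114) and 71.4 to 205 FPKM in heart (median 126). Head and periphery overlapped only through head week 5 ALF ZT15: the other 12 heads of week 5 ended at 74.1 FPKM. The 6 libraries labelled head but without eye RNA had 120 to 140 FPKM, and the 6 labelled periphery with eye RNA had 71.7 to 91.4 FPKM.

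**Figure D1:**
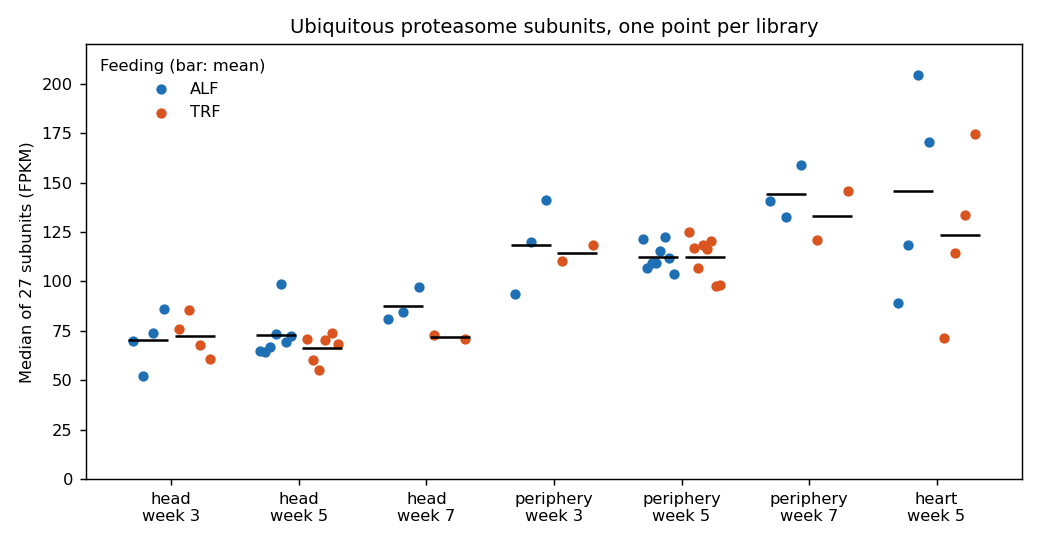
Median FPKM over the 27 general proteasome subunits (y axis, from 0) in each of the 60 libraries kept, by tissue and week (x axis) and feeding (colour), with the group mean as a bar. Heads lie between 52.4 and 99.0 FPKM, peripheries between 93.8 and 159 FPKM, and the 8 hearts reach from 71.4 to 205 FPKM.

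Within a tissue the subunits were not at equal levels, and the core stood above the base and lid. The highest mean at week 5 was that of Prosbeta5 in head (113 FPKM), and of Prosbeta7, a beta ring subunit without an active site, in periphery (205 FPKM) and heart (275 FPKM). Lowest were Rpn1, which docks ubiquitin carriers, in head (43.6 FPKM) and periphery (58.1 FPKM), and Rpn2, a scaffold of the base, in heart (43.5 FPKM). The highest mean was therefore 2.58 times the lowest in head, 3.53 times in periphery and 6.33 times in heart. Neighbours in this order often did not differ beyond their spread: the coefficient of variation over libraries had a median over the subunits of 14.6% in head, 8.0% in periphery and 34.0% in heart. The order itself was similar between tissues, with a Spearman rho over the 27 subunit means of 0.88 for head and periphery, 0.83 for heart and periphery and 0.76 for heart and head, given as a description because all subunits share the same libraries.

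Levels of the 12 core subunits moved apart from those of the 15 base and lid subunits between tissues. The median over libraries of the core's median was 83.0 FPKM in head, 150 FPKM in periphery and 176 FPKM in heart at week 5, against 59.8, 88.4 and 90.7 FPKM for base and lid. Within a library, the mean log2(FPKM + 1) of the core exceeded that of base and lid by 0.27 to 1.29 in head (median 0.31), by 0.61 to 0.78 in periphery (median 0.68) and by 0.93 to 1.28 in heart (median 1.11). All hearts therefore lay above all peripheries in this measure. All heads lay below all peripheries except ALF ZT15, which had 1.29 where the other 12 heads ended at 0.46.

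**Figure D2:**
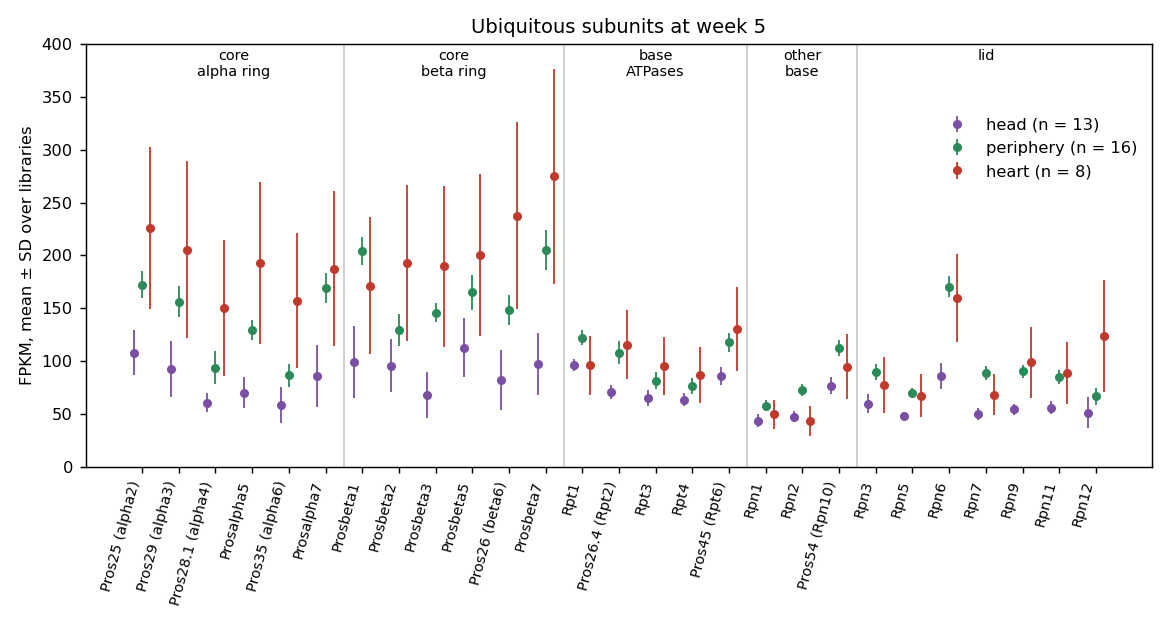
FPKM at week 5 (y axis, from 0; mean ± SD over libraries) of the 27 general subunits, grouped by place in the proteasome, in head, periphery and heart. Heart means exceed periphery means for most core subunits, up to 275 FPKM for Prosbeta7, while Rpn2 has 43.5 FPKM in heart and 73.0 FPKM in periphery.

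All 27 subunits were lower in head than in periphery at week 5, where 44.1% of the 12287 genes tested were called lower, 35.1% higher and 79.3% at all (limma with Benjamini-Hochberg adjustment, threshold 0.05). The median difference was -0.61 on the log2(FPKM + 1) scale, against -0.08 over all genes tested. Beta ring subunits differed most, with a median of -1.01, followed by the alpha ring (-0.75), the lid (-0.61), the other base subunits (-0.55) and the ATPases (-0.37). The p-values of tissue, age and feeding measure how a difference varied between matched combinations (feeding and ZT, or week and ZT), since each combination was a block. Those of the rhythm fits below measure the spread of libraries around the fitted curve. None of them measures the spread between repeated samples of 1 condition.

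Prosbeta3 (CG11981, chr3R:4831035-4831948, dm3), a structural subunit of the beta ring, was 51.9 to 138 FPKM in the 13 heads (median 63.3) and 125 to 163 FPKM in the 16 peripheries (median 146). The groups overlapped through head ALF ZT15, and the difference was -1.15 (SE 0.14, limma adjusted p = 5.15e-08). Prosbeta7 (CG12000, chr3R:1182734-1183897, dm3) differed by -1.12 (SE 0.14, adjusted p = 6.40e-08), with 71.7 to 190 FPKM in head and 182 to 240 FPKM in periphery. Prosbeta1, which carries the caspase-like site, differed by -1.11 (SE 0.13, adjusted p = 5.66e-08).

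Rpn6 (CG10149, chr2R:10637671-10639756, dm3), which clamps the lid to the core, was 53.0 to 99.2 FPKM in head (median 88.8) and 154 to 185 FPKM in periphery (median 171), with no overlap. It differed by -0.99 (SE 0.09, adjusted p = 9.41e-10), the smallest adjusted p among the 27. Smallest in size was the difference of the ATPase Rpt4, at -0.30 (SE 0.10, adjusted p = 0.00764), with 54.9 to 73.3 FPKM in head and 65.9 to 86.3 FPKM in periphery. Every periphery lay above every head for 9 of the 27 subunits (Rpt1, Pros26.4, Rpn2, Pros54, Rpn5, Rpn6, Rpn7, Rpn9 and Rpn11), and for 30.7% of all genes compared in this way. All 9 belong to base and lid, since the core was high in head ALF ZT15.

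In heart against head, 23 of the 27 subunits were higher and 0 lower, where 30.5% of all genes were called higher and 47.1% lower. All 12 core subunits were among the 23, with a median difference of 1.19, against 0.41 for base and lid and -0.21 over all genes. Pros26 (chr3L:16602500-16603518, dm3) differed most, by 1.52 (SE 0.18, adjusted p = 5.68e-08), with 118 to 370 FPKM in heart (median 222) and 62.1 to 173 FPKM in head (median 77.6). Of these 8 hearts and 13 heads the ranges overlapped. Next were Prosbeta7 (1.46), Prosbeta3 (1.43) and Prosalpha5 (1.4). Only for Rpn6 did every heart lie above every head, and 9.27% of all genes were separated in this way.

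The 4 subunits that did not pass in heart against head were Rpt1 (-0.02), Rpn1 (0.12), Rpn2 (-0.20) and Pros54 (0.26), a receptor for ubiquitin chains. All 7 lid subunits passed, from Rpn3 (0.33, SE 0.14, adjusted p = 0.0424) to Rpn12 (1.26, SE 0.17, adjusted p = 4.20e-07). After scaling by the median of ratios all 27 passed as higher, with a median of 1.4, and the median over all genes moved from -0.21 to 0.24.

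Heart against periphery gave a split by place in the proteasome. Of the 27 subunits 7 were higher and 5 lower in heart, where 16.3% of all genes were called higher and 64.6% lower. Of the 7, 6 were core subunits: Pros25 (0.33), Pros28.1 (0.60), Prosalpha5 (0.49), Pros35 (0.78), Prosbeta2 (0.51) and Pros26 (0.61). The seventh was the lid subunit Rpn12 (chr3L:16576128-16577122, dm3), at 63.3 to 205 FPKM in heart (median 109) and 55.2 to 79.4 FPKM in periphery (median 68.2). It differed by 0.83 (SE 0.16, adjusted p = 4.57e-05) with overlapping ranges.

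The 5 lower in heart were all from base and lid: Rpn2 (-0.82), Rpn7 (-0.41), Rpt1 (-0.39), Rpn1 (-0.30) and Pros54 (-0.29). Rpn2 (CG11888, chr3R:24979246-24982977, dm3) was 23.1 to 62.3 FPKM in heart (median 41.8) and 65.3 to 85.7 FPKM in periphery (median 72.1), so that every heart lay below every periphery (SE 0.13, adjusted p = 3.79e-06). No subunit had every heart above every periphery, as 7.29% of all genes did. These directions depend on the scaling, because the median over all genes was -0.61 for heart against periphery: after scaling by the median of ratios it was -0.24, 20 subunits were higher and 1 lower, and the values of Rpn7, Rpt1, Rpn1 and Pros54 turned to 0.07, 0.09, 0.17 and 0.18. They also depend on single ZTs: without ZT00, 18 were higher and 1 lower, without ZT12 4 were higher and 8 lower, and without ZT18 3 were higher and 7 lower.

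Core transcripts are shorter than those of base and lid, at 841 to 1169 nt against 992 to 3319 nt, and transcript length moved with some of these differences. The median over all 1715 genes tested in the core's length range was -0.38 for head against periphery, beside -0.86 for the core. For heart against head it was 0.18 beside 1.19, and for heart against periphery -0.58 beside 0.33. Over the 7065 genes in the length range of base and lid the medians were -0.09, -0.28 and -0.60, beside -0.55, 0.41 and -0.12 for base and lid. The part of length in the split between core and cap was not tested.

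In heart the subunits went up and down together over the day. The median of the 27 was 89.0, 118, 205 and 170 FPKM at ZT00, ZT06, ZT12 and ZT18 in ALF, and 71.4, 114, 133 and 175 FPKM in TRF. In both feeding groups all 27 subunits were lowest at ZT00. All 27 were highest at ZT12 in ALF, and all 27 were highest at ZT18 in TRF. The highest level was 1.94 to 2.90 times the lowest in ALF (median 2.39) and 1.79 to 3.02 times in TRF (median 2.47).

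Pros28.1, an alpha ring subunit, had the widest range in both feeding groups: 89.0, 119, 258 and 193 FPKM in ALF and 66.9, 120, 155 and 202 FPKM in TRF at ZT00, ZT06, ZT12 and ZT18. Prosbeta7 was 180, 227, 433 and 370 FPKM in ALF and 123, 256, 274 and 336 FPKM in TRF. Rpn2, low in heart throughout, moved in the same way, at 31.1, 39.7, 62.3 and 57.2 FPKM in ALF and 23.1, 34.4, 43.9 and 55.9 FPKM in TRF. For all 27 subunits both hearts of ZT00 lay below all 4 hearts of ZT12 and ZT18, as they did for 17.9% of all 9726 genes tested.

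**Figure D3:**
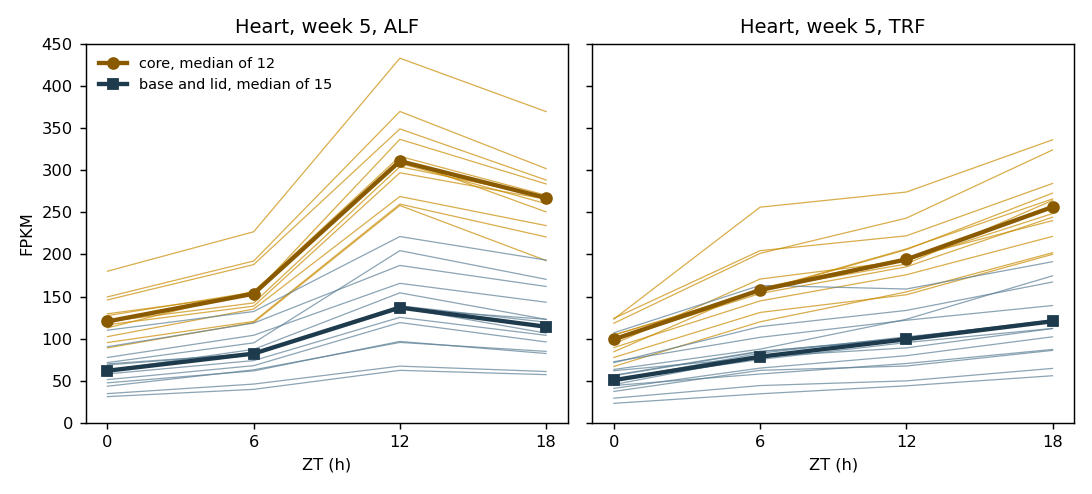
FPKM in the 8 hearts against ZT in hours, ALF on the left and TRF on the right, with a thin line for each of the 27 subunits and thick lines for the medians of 12 core and 15 base and lid subunits. Every line starts at its lowest value at ZT00, and the highest values come at ZT12 in ALF and at ZT18 in TRF.

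No subunit passed as rhythmic in heart, where 0% of all genes did: a cosine and sine of 24 h fitted with limma gave adjusted p = 0.316 to 0.417. All 27 had an unadjusted p under 0.05, as did 10.4% of all genes, and limma-voom on recovered reads gave the same counts for the subunits, 0 and 27, with 3 genes called in all. The fitted amplitude was 0.44 to 0.77 (median 0.60, against 0.19 over all genes), with peaks from ZT13.6 to ZT14.4. Without ZT00, 4 of the 27 had an unadjusted p under 0.05. Across the 8 hearts the median pairwise Pearson r between subunits was 0.99, against 0.75 in the 16 peripheries and 0.49 in the 13 heads of week 5; this describes libraries that all subunits share.

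Other measures of the same 8 hearts stand beside this, and their part in it was not tested. The median over ribosomal protein genes was 1942 to 2322 FPKM, and its lowest value was at TRF ZT18, where the subunits were highest in TRF. Summed testis markers were 169 to 1238 FPKM, with the highest value at ALF ZT18. Summed muscle markers were 4930 to 11110 FPKM, with the highest at ALF ZT12, where the subunits were highest too, and the lowest at TRF ZT06, where they were not lowest. Summed accessory gland markers were 112 to 1160 FPKM, with the highest value also at ALF ZT12 and the next, 635 FPKM, at TRF ZT12. Summed heart markers were 778 to 1818 FPKM, with the lowest value at ALF ZT00 and the highest at TRF ZT00. The subunits were lowest at ZT00 in both feeding groups. The clock gene tim was 24.4, 15.9, 92.5 and 155 FPKM in ALF and 42.7, 18.6, 76.2 and 162 FPKM in TRF, so that the labelled ZTs of both heart series had tim high at ZT12 and ZT18.

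In head and periphery no daily change of the subunits passed at week 5 either. Whether daily change differed between the tissues was not tested. Of the 27 subunits 0 passed in head, where 0% of all genes did, and 0 in periphery, where 0.242% did, and in both tissues 0 had an unadjusted p under 0.05, as 6.76% of all genes did in head and 26.5% in periphery. limma-voom also called 0 in both. The median amplitude in periphery was 0.04, against 0.12 over all genes, and in head 0.15 against 0.18.

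Subunit RNA in periphery was higher at week 7 than at week 3. Of the 27 subunits 7 rose and 0 fell, where 6.24% of the 12002 genes tested rose and 1.19% fell. The median over the 27 was 0.31 and over all genes 0.06, and all 27 differences were above 0, as were 59.9% of all. At an unadjusted p under 0.05 there were 23 of the 27 and 25.6% of all genes. The beta ring had 4 of its 6 tested members among the 7, the alpha ring 1 of 6 and the ATPases 2 of 5. The other base subunits had 0 of 3 and the lid 0 of 7, with values from 0.16 for Rpn6 to 0.40 for Rpn12.

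Prosbeta5 (CG12323, chr2R:6707469-6708685, dm3), which carries the chymotrypsin-like site, had 127, 140 and 195 FPKM at ALF ZT06, ZT12 and ZT18 and 153 and 138 FPKM at TRF ZT12 and ZT18 of week 3. At week 7 the same combinations had 310, 223, 252, 204 and 237 FPKM. All 5 libraries of week 7 lay above all 5 of week 3, and the difference was 0.70 (SE 0.13, limma adjusted p = 0.00988).

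Prosbeta3 had 136, 131, 155, 132 and 121 FPKM at week 3 and 237, 185, 224, 170 and 208 FPKM at week 7, in the same order. These also did not overlap, and the difference was 0.60 (SE 0.09, adjusted p = 0.00357). The ATPase Rpt3 (CG16916, chrX:11019221-11020840, dm3) had 65.9, 85.1, 102, 80.2 and 78.4 FPKM at week 3 and 132, 109, 126, 102 and 123 FPKM at week 7, just without overlap, with a difference of 0.53 (SE 0.11, adjusted p = 0.0206). These 3 were the only subunits of the 27 without overlap, beside 7.66% of all genes.

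The other 4 that rose were Prosbeta1 (0.49), Prosalpha5 (0.44), Rpt4 (0.44) and Prosbeta7 (0.40, adjusted p = 0.0494). Pair by pair, the median over the 27 subunits of week 7 minus week 3 was 0.75 at ALF ZT06, 0.11 at ALF ZT12, 0.22 at ALF ZT18, 0.11 at TRF ZT12 and 0.46 at TRF ZT18, so the sizes were far apart. Over all genes the medians of the same pairs were 0.03, 0.05, 0.15, 0.05 and 0.04. All 27 subunits were above 0 in 3 of the pairs and 23 of the 27 in each pair of ZT12. Without ZT06 2 subunits passed, with a median of 0.20 over the 27, and 541 of all genes passed instead of 892. Without ZT12 0 subunits and 29 genes passed, with a subunit median of 0.48, and without ZT18 0 subunits and 1 gene, with a median of 0.31. After scaling by the median of ratios 3 subunits and 631 genes passed, with a subunit median of 0.24. The median over ribosomal protein genes was higher at week 7 as well, with 1357 to 1477 FPKM against 1122 to 1247 FPKM, and its part in the result was not tested.

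**Figure D4:**
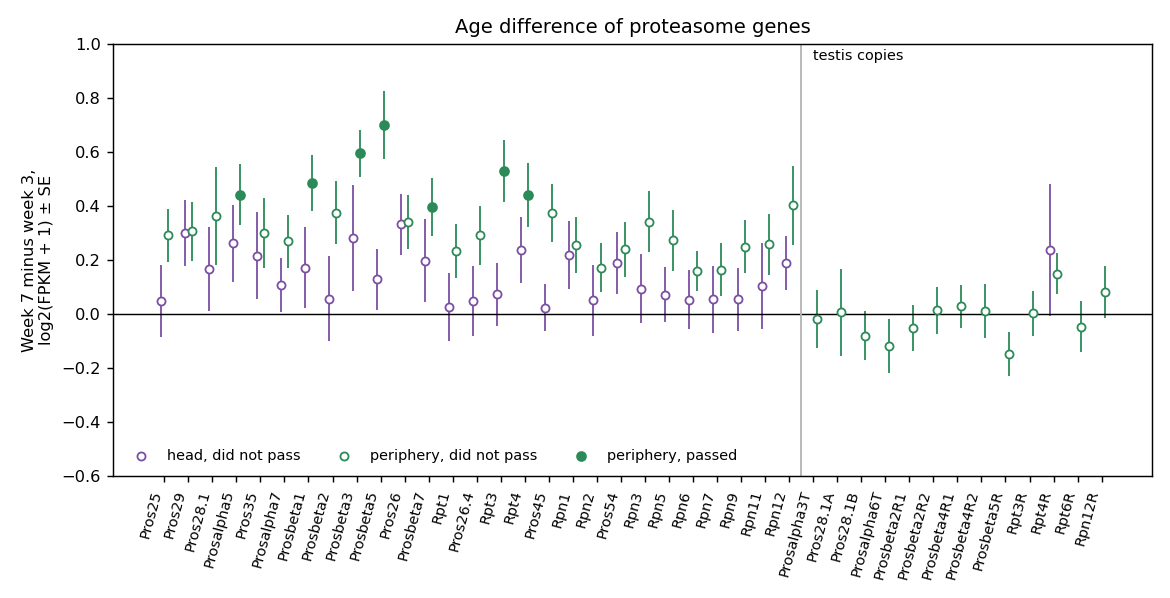
Difference between week 7 and week 3 in log2(FPKM + 1), with SE, for the proteasome genes tested in periphery and in head; filled points passed at an adjusted p under 0.05. In periphery the 27 general subunits lie at 0.16 to 0.70 and the 13 testis copies at -0.15 to 0.15, and in head no point passed.

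The labels of week 3 and week 7 hold a doubt that touches this comparison. In ALF peripheries tim was 18.4 FPKM at ZT12 and 92.5 FPKM at ZT18 of week 3, and 19.8 and 93.5 FPKM at week 7. In TRF it ran the other way, at 63.8 and 21.7 FPKM at week 3 and 52.0 and 21.8 FPKM at week 7. The pairs compare the same labelled time at both ages, and the order within TRF peripheries was the same at both. Kept heads also differed in tim between feeding types at the same labelled ZT. At ZT18 of week 3 it was 151 FPKM in ALF and 33.3 FPKM in TRF, and at ZT06 of week 7 it was 86.6 and 224 FPKM. The comparisons of age and feeding in head are matched by these labels too.

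In periphery week 5 was near week 3. Week 5 against week 3 gave 0 calls among the 27, by limma and by limma-voom, with a median of -0.04, where 3.36% of all genes passed. At an unadjusted p under 0.05 there were 0 subunits and 17.3% of all genes. Week 7 against week 5 gave 1, Prosbeta3 (0.49, adjusted p = 0.0415), where 0.217% of all genes rose, and a median over the 27 of 0.40. With no block for feeding and ZT, 11 passed in that comparison. Weeks were not repeated, and the labels give no batch, so age and the handling of each week's flies cannot be told apart.

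In head 0 subunits passed between ages, by limma and by limma-voom. For week 7 against week 3 the median was 0.11 and all 27 differences were above 0, as were 54.9% of all genes, and 0% of all genes were called. At an unadjusted p under 0.05 there were 2, beside 3.23% of all genes. For week 5 against week 3 it was -0.11 (0.0203% of all genes called, and 3 subunits and 12% of all genes at an unadjusted p under 0.05), and for week 7 against week 5 it was 0.23 (0.0102% called, and 6 subunits and 7.62% of all genes unadjusted). The difference between the tissues in the change from week 3 to week 7 was tested as an interaction: 0 of 27 passed, where 0.349% of all genes did, with a median of 0.20. At an unadjusted p under 0.05 there were 3, beside 10.6% of all genes. limma-voom also called 0. Prosbeta5 had the largest interaction, 0.57 (SE 0.17, adjusted p = 0.186), so a rise particular to periphery was not shown.

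Feeding had no effect that passed. In head at week 7 and in periphery at weeks 3 and 7 only 2 TRF libraries were kept. TRF minus ALF there rests on 2 matched pairs, with spread estimated over all weeks of the tissue. In 7 comparisons of TRF with ALF (head and periphery at each week and heart at week 5) 0 of 27 subunits passed by limma or by limma-voom. Of all genes 0% passed in 6 of these comparisons and 0.167% in periphery at week 7. The median difference over the subunits was 0.02, -0.05 and -0.13 in head and -0.18, -0.02 and -0.08 in periphery at weeks 3, 5 and 7, and -0.21 in heart. All 27 were below 0 in periphery at week 3 and in heart, where 46.5% and 41.8% of all genes were above 0. At an unadjusted p under 0.05 there were 4 in periphery at week 3, 1 in periphery at week 7 and 0 in the other 5 comparisons. Of all genes 6.2% and 15.9% had such a p in periphery at weeks 3 and 7 and 5.24% at week 5, beside 7.59%, 1.42% and 3.14% in head at weeks 3, 5 and 7 and 6.53% in heart. The doubt over the ZT labels of TRF at weeks 3 and 7 touches these comparisons most, in head as in periphery, since they match TRF with ALF by labelled ZT. With no such matching 0 of the 27 passed in periphery at either week, 0 had an unadjusted p under 0.05, and the medians were 0.00 at week 3 and -0.11 at week 7.

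General subunits known under other symbols are CG17331 (beta4), Mov34 (Rpn8), Tbp-1 (Rpt5), CG13349 (Rpn13) and CG13779 (Sem1). In head against periphery 4 of these 5 were lower, with a median of -0.63, beside the 44.1% of all genes given above. In heart, CG17331 was higher than in periphery by 0.87 (SE 0.18, adjusted p = 0.000117) and Mov34 lower by -0.55 (SE 0.10, adjusted p = 3.37e-05), and after scaling by the median of ratios 3 of the 5 were higher and 0 lower. From week 3 to week 7 in periphery 1 of 5 rose, CG13779 (0.47, adjusted p = 0.0442), beside 6.24% of all genes, and all 5 values were above 0, as were 59.9% of all.

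Partners of the proteasome, a list of 11 genes for its assembly and control, differed between tissues in both directions. In head against periphery 1 was higher and 7 lower, beside 35.1% and 44.1% of all genes, among them Uch-L3 (-2.29), a ubiquitin hydrolase, ntc (-2.81), which works with a ubiquitin ligase of the male germ line, and PI31 (-0.65), a proteasome binding protein. The assembly factor Pomp was higher in heart than in head by 1.03 (SE 0.17, adjusted p = 1.01e-05), and in heart against periphery 2 of the 11 were higher and 5 lower, beside 16.3% and 64.6% of all genes, or 6 and 2 after scaling by the median of ratios. From week 3 to week 7 in periphery 0 of the 11 passed, where 7.43% of all genes did. Keap1 (0.28, adjusted p = 0.0737) and Pomp (0.32, adjusted p = 0.0775) came nearest.

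In the ubiquitin pathway, a list of 22 genes for ubiquitin itself, its ligation and its carriers, 5 were higher and 14 lower in head than in periphery, with a median of -0.31, beside 35.1% and 44.1% of all genes and their median of -0.08. Npl4, an adaptor of the segregase TER94, was lowest, at -3.18 (SE 0.07, adjusted p = 6.89e-22), followed by the ligase scaffold Cul-3 (-1.68) and the conjugating enzyme UbcD2 (-1.62). In heart against periphery 6 were higher and 13 lower, beside 16.3% and 64.6% of all genes, or 8 and 5 after scaling by the median of ratios. From week 3 to week 7 in periphery 4 rose and 1 fell, where 6.24% and 1.19% of all genes did. Those that rose were the carrier Rad23 (0.39, adjusted p = 0.0149), the ubiquitin-like protein Nedd8 (0.35), the ligase subunit Roc1a (0.31) and Ufd1-like (0.29), the other adaptor of TER94, and Npl4 fell by 0.99 (SE 0.13, adjusted p = 0.00217).

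The 13 testis copies were RNAs of the periphery. Their summed level was 297 to 435 FPKM in the 26 peripheries kept (median 379), 2.23 to 11.9 FPKM in the 26 heads (median 6.94) and 7.17 to 52.2 FPKM in the 8 hearts (median 10.7). The 6 libraries labelled head but with body RNA had 239 to 406 FPKM, and the 6 labelled periphery with eye RNA had 6.81 to 9.40 FPKM. Summed markers of the testis behaved alike, with 6242 to 10728 FPKM in periphery, 30.3 to 51.8 FPKM in head and 169 to 1238 FPKM in heart. The heart of ALF ZT18 was highest for both sums, and the periphery of week 7 TRF ZT12 was lowest of the peripheries for both. Because the copies pass a filter on low values only through periphery, their difference from head is given as a description without a test.

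In periphery the copies followed a steep order. Prosbeta5R (CG9868, chr2R:19196177-19197339, dm3) was highest, with 49.8 to 77.4 FPKM (median 66.4), ahead of Prosalpha6T (median 46.9), Prosbeta4R2 (43.8) and Pros28.1B (41.9), whose ranges overlapped one another. Rpn12R (34.8), Rpt6R (27.6), Rpt4R (23.6) and Prosbeta2R2 (21.1) came next, then Rpt3R (19.2), Prosbeta2R1 (18.8) and Prosbeta4R1 (18.6). Pros28.1A (10.9) and Prosalpha3T were lowest, the latter with 4.35 to 8.27 FPKM (median 6.34). The coefficient of variation over the 26 libraries was 9.94% for Rpt4R to 15.6% for Pros28.1A. Where a subunit had 2 copies, every library had more of Pros28.1B than of Pros28.1A and more of Prosbeta4R2 than of Prosbeta4R1, while Prosbeta2R1 and Prosbeta2R2 overlapped.

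**Figure D5:**
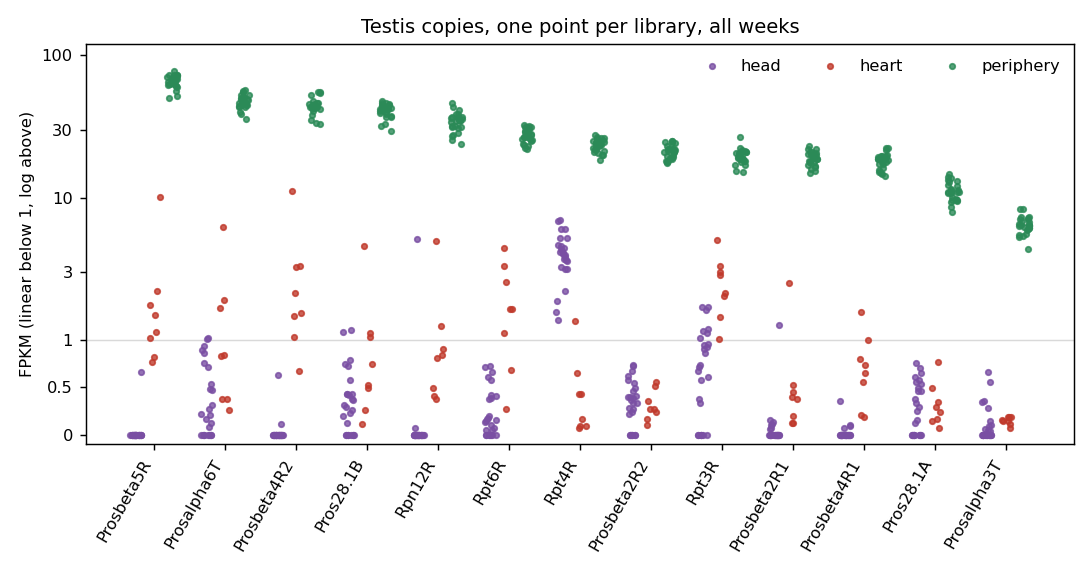
FPKM of the 13 testis copies (y axis, linear below 1 and logarithmic above) with a point for each of the 60 libraries, coloured by tissue. In periphery the medians run from 66.4 FPKM for Prosbeta5R to 6.34 FPKM for Prosalpha3T; in heads Rpt4R lies at 1.37 to 6.99 FPKM, and the other copies have medians from 0 to 0.724 FPKM and reach 5.08 FPKM in 1 library for Rpn12R.

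No copy reached the level of its general subunit in any periphery. Both levels are of the whole body without the head, so the shares below do not give the ratio within the testis. As a share of the general gene's FPKM in the same library, the medians were 53.5% for Prosalpha6T, 49.6% for Rpn12R, 42.4% for Prosbeta4R2, 40.8% for Pros28.1B and 37.4% for Prosbeta5R. The ATPase copies were lower and close together, at 27.8% (Rpt4R), 22.6% (Rpt3R) and 21.6% (Rpt6R). The 4 lowest were Prosbeta2R2 (15.5%), Prosbeta2R1 (14.4%), Pros28.1A (11.3%) and Prosalpha3T (4.05%), with Prosbeta4R1 at 17.3%. The highest share in any library was 83.9%, for Pros28.1B. How reads that match both a copy and its general gene were assigned is not given in the sources used here. Its part in these shares was not tested. In heads, where Prosbeta5 was 84.6 to 200 FPKM, Prosbeta5R had 1 read in all 26 libraries together, the fewest of the copies. In the same heads Rpt3R had 232 reads and Rpt4R had 929.

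Heads held few reads of most copies. Over the 26 heads together, Prosbeta4R2 and Rpn12R had 2 reads each and Prosbeta4R1 had 4, while Rpt3R had 232. The highest value of Rpn12R, 5.08 FPKM, was 1 read in the shallowest library, head week 3 TRF ZT12, with 0.210 M reads. In heart every library had at least 1 read of every copy, and the totals over the 8 hearts ran from 28 reads for Prosalpha3T to 550 for Rpt3R.

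Rpt4R (CG7257, chr3L:11935123-11936585, dm3), the copy of an ATPase, was highest in periphery like the other copies, at 18.4 to 27.4 FPKM, but had a low level in head as well. It had reads in all 26 heads, 929 in all, and its level was 1.57 to 6.86 FPKM at week 3 (median 4.0), 1.37 to 6.99 FPKM at week 5 (median 4.03) and 3.13 to 5.16 FPKM at week 7 (median 4.59). The 6 libraries labelled periphery with eye RNA had 3.36 to 5.44 FPKM. In heart it was 0.426, 0.426, 0.65 and 1.35 FPKM in ALF and 0.093, 0.164, 0.073 and 0.094 FPKM in TRF at ZT00, ZT06, ZT12 and ZT18. Every head thus lay above every heart, by a narrow gap at ALF ZT18, and the difference of heart from head at week 5 was -1.82, given without a test. Its general gene Rpt4 lay the other way, with 50.7 to 125 FPKM in heart and 54.9 to 73.3 FPKM in head at week 5, and summed testis markers were also higher in heart than in head. Rpt4R was picked out after its values were seen, and whether it received reads of Rpt4 was not tested.

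No testis copy passed a test of age in periphery. From week 3 to week 7, 0 of 13 passed by limma, where 7.43% of all genes did, and 0 had an unadjusted p under 0.05, where 25.6% did. The differences had values from -0.15 to 0.15 and a median of 0.00. In the same libraries the general subunits had a median of 0.31. From week 3 to week 5, 0 passed, with 1 at an unadjusted p under 0.05, Rpn12R (0.32, adjusted p = 0.110), beside 3.36% and 17.3% of all genes. From week 5 to week 7 also 0 passed, with 1 unadjusted, beside 0.767% and 17.8%. TRF against ALF likewise gave 0 calls at each week, with 0, 1 and 2 of 13 at an unadjusted p under 0.05 at weeks 3, 5 and 7, beside the 6.2%, 5.24% and 15.9% of all genes given above. At week 7, where 2 TRF libraries were kept, all 13 differences were below 0, with a median of -0.25. Of all genes 35.3% were above 0, and the median over all genes was -0.09. The TRF library labelled ZT12 of that week also had the lowest testis markers, 6242 FPKM against 8712 FPKM or more in the other 4.

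The position of the copies differed from that of the general genes. Of the 28 general subunits 4 are on the X chromosome (Pros28.1, Rpt3, Rpt4 and Pros45), and all 4 have testis copies, 5 in number, each on an autosome. Of the 24 autosomal ones 5 have a copy under the symbol rule. Only Prosbeta2R1 is an X-linked copy, of a gene on 3L. In all, 8 of the 13 lie on another chromosome arm than their general gene, and Prosbeta4R1 and Prosbeta4R2 lie 1467 bases apart on 2L (chr2L:2653046-2653926 and chr2L:2655394-2656212, dm3).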

How the data were processed

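The authors' deposited table holds FPKM for 29260 RefSeq transcripts in 72 libraries. Per the labels, the kit did not keep strand and polyA+ RNA was used, so reads of genes that overlap on opposite strands cannot be told apart. This concerns Pros25, Pros26.4, Pros28.1A, Pros45, Prosalpha1, Prosbeta1, Prosbeta2, Prosbeta3, Rpn7 and Rpt4. Prosbeta4R2, Rpn12R and Rpt1 overlap a listed gene on the same strand, as does Prosalpha1. The submitters' processing notes name build dm3 and the tools STAR 2.2.0c, CASAVA 1.8.2 and HOMER, with no role for each; coordinates are those of the table. Of 15240 genes, 5900 had several transcripts. Low FPKM times transcript length fell on whole multiples of a step in each library (100% of values within 0.03 reads), which gave the depths in reads.

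Tests used limma 3.58.1 in R 4.3.3 on log2(FPKM + 1). Genes entered a fit where its libraries averaged 1 FPKM or more, with Benjamini-Hochberg adjustment over all of them and a threshold of 0.05. Tissues (week 5) and ages (ZT00, ZT06, ZT12 and ZT18) were compared with the combination of feeding and ZT as block, feeding with the combination of week and ZT as block, and rhythm by a cosine and sine of 24 h. The blocks come from the ZTs in the labels, not from shared animals. All differences are of mean log2(FPKM + 1), which understates changes of low genes. The code was tested on simulated data. Tables and figures used python 3.11.15, numpy 2.4.6, pandas 2.3.3 and matplotlib 3.10.9.

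The members and gene lists were chosen with earlier results of these data known. Any member could be named; of the lists, at most 4 genes past the threshold by size of difference, or 2 by smallest p where none passed. Alternatives were pseudocounts of 0.1 and 5, no filter and a minimum of 5 FPKM, scaling by the median of ratios, all libraries as labelled, no block, the longest transcript, limma-voom on recovered reads and leaving out each ZT. The fits without head week 5 ALF ZT15, without head week 3 TRF ZT12 and with 4 ZTs were added after the data were seen. No sequences are given, since none were among the sources used here.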

Additional observations from a re-analysis of the deposited data

Results flagged for a closer look

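The head of week 5 ALF ZT15 was far from the other 6 ALF heads of week 5. Its median over the 27 general subunits was 98.95 FPKM, and the nearest of the others had 73.25 FPKM. In the same library the core's median was 2.98 times that of base and lid, and the nearest of the others had 1.52 times. Its median over ribosomal protein genes was 2989 FPKM, and genes in the core's length range were higher there by a median of 0.63 on the log2 scale, beside 1.05 for the core itself and 0.04 for base and lid. The part of these in the result was not tested. Of 32 sets of libraries and measures examined in this way 2 stood out, both in this library; chance alone picks out about 1 in 20.

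The 6 libraries labelled head that had body RNA are used in no main comparison and enter only the alternative with all libraries as labelled. Their summed level of the 13 testis copies was at least 238.665 FPKM, where no kept head exceeded 11.9 FPKM.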

How the results depend on the processing

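Counts of calls were compared over 21 results: 190 alternatives stayed within 1.5 times the reported count and 5 did not, as did 117 and 7 of those that left out a ZT, and the comparisons of head with periphery, of heart with head, of age in head, of feeding and of rhythm stayed so throughout. Heart against periphery gave 21 calls after scaling by the median of ratios and 10 to 19 on leaving out a ZT, with 19 without ZT00. In that scaling 4 subunits called lower turned above 0, though none passed: Pros54 (0.18), Rpn1 (0.17), Rpn7 (0.066) and Rpt1 (0.091). Week 7 against week 3 in periphery gave 3 calls after scaling by the median of ratios, 0 with all libraries as labelled, and 0 to 7 on leaving out a ZT. Week 7 against week 5 in periphery gave 0 calls with all libraries as labelled, 0 to 1 on leaving out a ZT, and 11 with no replicate block, that is, with no matching of libraries by feeding and ZT. With no such block, heart against periphery gave 15 calls and week 7 against week 3 in periphery 8, and no other count of the subunits changed. With all libraries as labelled Prosbeta3 had -0.17 for week 7 against week 5, and heart minus head turned below 0 for Pros28.1B (-0.54), Prosalpha6T (-0.29), Prosbeta2R1 (-0.33), Prosbeta4R1 (-0.077) and Rpn12R (-0.012); that setting puts libraries with body RNA among the heads and libraries with eye RNA among the peripheries. The cause of the other shifts was not tested. For single genes, 766 calls held and 50 were lost on leaving out a ZT, and 1092 held and 44 were lost under other alternatives. These calls include tissue tests of testis copies, which pass the filter on low values only through periphery. The tally therefore does not describe the general subunits alone. Heads at weeks 3 and 7 hold too few reads to show small changes of low genes, and the calls for week 7 against week 3 in periphery rest on 5 libraries per age.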
